A study of Mus musculus with 7 samples.

Results

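The epidermal growth factor receptor (EGFR) family was examined in mouse lung and in lung tumors that arose with overexpression of the histone methyltransferase EZH2. The genes were chosen by symbol: the 4 receptors Egfr, Erbb2, Erbb3 and Erbb4 and the 6 ligands Areg, Ereg, Hbegf, Tgfa, Btc and Egf. All 10 were among the 22447 genes with a symbol in the RNA sequencing tables. Of the 7 libraries, 3 came from lung tumors of EZH2-overexpressing mice (tumors 1 to 3), 2 from normal lung of EZH2-overexpressing mice (OE normal 1 and 2) and 2 from normal lung of wild-type mice (WT 1 and 2). The tumors and the OE normal lung share the EZH2 overexpression, and the WT lung lacks it. The labels give no strain, age, promoter or Cre line for the transgene and do not say whether replicates were separate animals, so the p-values reflect the spread between these libraries and no more. They name lung tissue as the source but also describe plating minced tumor nodules in serum-containing medium, so whether the tumor RNA passed through culture is not stated.

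In this family a ligand binds a receptor at the cell surface, 2 receptors pair, and their kinase domains phosphorylate tails that recruit adaptors of the RAS-ERK and PI3K-AKT pathways. Areg (amphiregulin), Tgfa (transforming growth factor alpha) and Egf bind EGFR, while Hbegf (heparin-binding EGF-like growth factor), Btc (betacellulin) and Ereg (epiregulin) bind EGFR and ERBB4. ERBB2 binds no ligand and serves as a partner. ERBB3 binds neuregulins, has very weak kinase activity and signals through a partner, chiefly to PI3K. In lung, EGFR signaling acts in epithelial growth and repair, and activating EGFR mutations drive a share of human lung adenocarcinoma.

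Values are FPKM (fragments per kilobase of transcript, scaled to library size), a per-length scale on which genes can be compared. Differences were taken on the log2(FPKM + 1) scale, on which changes of weakly expressed genes look smaller, each with its standard error (SE) from limma. Called means a limma adjusted p under 0.05 over the 14057 genes tested. Ezh2 itself was at 8.48, 23.5 and 22.6 FPKM in tumors 1 to 3, 10.2 and 11.5 FPKM in OE normal 1 and 2, and 3.72 and 2.58 FPKM in WT 1 and 2, so tumor 1 lay below both OE normal lungs. The epithelial adhesion gene Epcam ranged from 114 to 131 FPKM in tumors and from 20.1 to 29.4 FPKM in the 4 normal lungs, and none of the 6 general epithelial markers was at 0. A value of 0 can be a failed estimate in these files: the surfactant gene Sftpc was listed at 0 in tumors 2 and 3 and at 10578 to 35944 FPKM elsewhere, and the club cell gene Scgb1a1 at 0 in all 4 normal lungs, so both were left out of marker sums. Tumors 2 and 3 resembled each other more (r = 0.970 over genes, which do not count as replicates) than tumor 1 resembled either (0.897 and 0.894). Total reads per library were not analysed here, and relative depth, read from the step between low values, was 1.20 to 1.87 in the other libraries with tumor 1 set to 1.

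The receptor profile differed between tumors and normal lung, with less Egfr and more Erbb3 in tumors. Erbb3 was the most abundant of the 4 receptor transcripts in each of the 3 tumors, followed by Erbb2, Egfr and Erbb4. In each of the 4 normal lungs Erbb2 came first, followed by Erbb3, Egfr and Erbb4. The summed receptor level was 41.3, 24.9 and 22.9 FPKM in tumors 1 to 3, 20.5 and 17.1 FPKM in OE normal 1 and 2, and 22.0 and 20.9 FPKM in WT 1 and 2.

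Egfr, the receptor that gives the family its name, was at 0.638, 0.142 and 0.234 FPKM in tumors 1 to 3. It was at 2.69 and 3.03 FPKM in OE normal 1 and 2, and 4.41 and 3.14 FPKM in WT 1 and 2. The highest tumor lay below the lowest normal lung, and tumor 1 was the highest of the tumors. The mean was 0.338 ± 0.264 FPKM in tumors (SD, n = 3), 8.47-fold below the 2.86 ± 0.244 FPKM of OE normal lung (n = 2) and 11.2-fold below the 3.78 ± 0.896 FPKM of WT lung (n = 2). Egfr fell against OE normal lung (difference in log2 -1.55, SE 0.21, limma adjusted p = 0.00263) and against WT lung (-1.84, SE 0.21, limma adjusted p = 0.00142). The size depended on the scale, at -2.92 and -3.29 with a pseudocount of 0.1 FPKM and -0.87 against OE normal lung with quantile normalization, all past the threshold. These 2 comparisons share the tumor libraries. Among the genes tested, Egfr exceeded 4.96% to 8.50% of genes in the tumor libraries and 17.4% to 29.8% in the normal lungs.

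Egfr is also transcribed outside the airway and alveolar type 2 epithelium, and markers of several other cell types also differed between tumors and normal lung. The summed level of 8 alveolar type 1 markers was 839 to 1378 FPKM in tumors against 1910 to 2221 FPKM in the OE normal lungs and 3064 to 3406 FPKM in the WT lungs, with none at 0. Against OE normal lung 5 of these 8 fell, 2 were not called and 1 rose (Aqp5, log2 difference 0.93, limma adjusted p = 0.0220). The sum was lowest in tumor 1 (839 FPKM), the tumor with the highest Egfr. The sum of 7 endothelial markers was 66.04 to 83.8 FPKM in tumors and 1006 to 1240 FPKM in the normal lungs. Fibroblast markers (7 genes) summed to 72.7 and 103 FPKM in tumors 2 and 3 and to 401 FPKM in tumor 1, against 448 to 595 FPKM in the normal lungs. The sum of tumor 1 hid members that differed in direction. Its Mfap4 (25.5 FPKM, against 203 to 357 FPKM) and Pdgfra (17.3 FPKM, against 26.8 to 34.1 FPKM) lay below every normal lung. Col1a1, Col1a2, Col3a1 and Dcn lay above every normal lung in tumor 1, and Lum lay within their range. Club markers (4 genes) summed to 240 to 567 FPKM in tumors and 5668 to 8188 FPKM in the normal lungs, and ciliated markers (6 genes) to 11.6 to 22.1 and 374 to 543 FPKM. The part of these cell types in the Egfr difference was not tested. In bulk tissue fewer cells of a type and less RNA per cell cannot be told apart.

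Erbb3 was at 24.8, 14.9 and 13.2 FPKM in tumors 1 to 3, at 7.97 and 6.75 FPKM in OE normal 1 and 2, and 7.69 and 7.77 FPKM in WT 1 and 2. All 3 tumors lay above all 4 normal lungs, which stood within a narrow range. The tumor mean of 17.6 ± 6.29 FPKM was 2.40-fold that of OE normal lung (7.36 ± 0.863 FPKM) and 2.28-fold that of WT lung (7.73 ± 0.0574 FPKM). Erbb3 rose in both comparisons (log2 difference 1.11, SE 0.27, limma adjusted p = 0.0199, and 1.04, SE 0.27, limma adjusted p = 0.0248). The first call needed both OE normal libraries (adjusted p = 0.0776 and 0.121 without OE normal 1 or 2), and the second both WT libraries (adjusted p = 0.120 and 0.123 without WT 1 or 2). Erbb3 exceeded 65.5% to 80.2% of tested genes in the tumors and 39.2% to 46.5% in the normal lungs.

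Epithelial markers also differed between tumors and normal lung, 4 of 6 rising against OE normal lung and 4 rising and 1 falling against WT lung. Over all genes tested, 13.1% and 15% were called higher in these comparisons. The sum of the 6 markers was 805, 586 and 556 FPKM in tumors 1 to 3, 287 to 327 FPKM in the OE normal lungs and 409 to 425 FPKM in the WT lungs. Among the tumors Krt8, Krt18, Krt19 and Cldn7 were highest in tumor 1, as was Erbb3. Cdh1 was lowest there, and Epcam lay between tumors 2 and 3. Relative to Epcam, Erbb3 was lower in tumors, with ratios of 0.208, 0.114 and 0.116 in tumors 1 to 3 against 0.262 to 0.336 in the 4 normal lungs. The direction of such a ratio depended on the marker. The tumor mean over that of OE normal lung was 2.40-fold for Erbb3, and larger for Epcam (5.42-fold) and Krt18 (3.19-fold). It was smaller for Cdh1 (2.00-fold), Krt8 (1.96-fold), Cldn7 (2.10-fold) and Krt19 (0.597-fold). Of 9 alveolar type 2 markers 7 rose and 0 fell in both comparisons (median log2 difference 1.70 and 1.62). This count and the medians include Sftpc with its values listed at 0 (-8.54 and -8.77, not called). The 8 without Sftpc summed to 7926, 12943 and 13018 FPKM in tumors 1 to 3 and 2072 to 3350 FPKM in the normal lungs. This sum was lowest in tumor 1, the tumor with the highest Erbb3. The part of epithelial cells, of the alveolar type 2 kind or others, in the Erbb3 difference was not tested.

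Erbb2 was at 15.8, 9.84 and 9.48 FPKM in tumors 1 to 3, at 9.74 and 7.12 FPKM in OE normal 1 and 2, and at 9.87 FPKM in both WT lungs. Tumor 1 was high, while tumors 2 and 3 lay within the range of the normal lungs, and the groups overlapped. Neither comparison passed (log2 difference 0.41, SE 0.25, limma adjusted p = 0.233 against OE normal lung, and 0.19, SE 0.25, limma adjusted p = 0.570 against WT lung). The ranges of Erbb2 and Erbb3 overlapped among the tumors, although within each tumor Erbb3 was higher, by a ratio of 1.57, 1.52 and 1.39. In the normal lungs this ratio was 0.779 to 0.948. The ratio of Erbb3 to Egfr was 38.9, 105 and 56.3 in tumors 1 to 3 and 1.74 to 2.96 in the normal lungs.

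Erbb4, a receptor for neuregulins and for a subset of EGF ligands, was near the lower limit of these libraries. It was listed at 0.00728 FPKM in tumor 1, at 0 in tumors 2 and 3, at 0.0727 and 0.148 FPKM in OE normal 1 and 2, and 0.0398 and 0.0692 FPKM in WT 1 and 2. It did not reach the minimum of 1 FPKM in 2 libraries and was not tested. Multiplied by relative depth, the values of the normal lungs were 12.0, 37.9, 8.01 and 13.0 times that of tumor 1 (OE normal 1 and 2, WT 1 and 2). Each lies within 0.1 of a whole multiple of the tumor 1 value. Among receptor transcripts Erbb4 held at most 0.867% of the sum in any library.

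**Figure D1:**
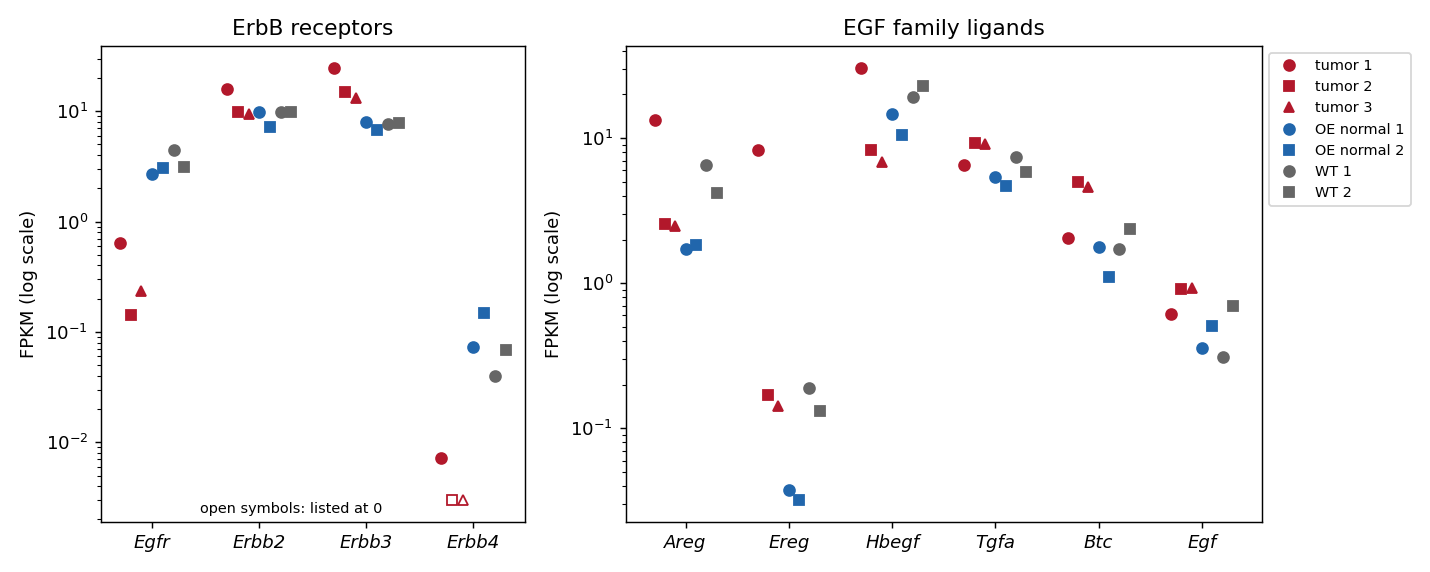
FPKM on a log axis for the 4 receptors (left) and 6 ligands (right), with 1 symbol per library, colored by group and shaped by replicate number. Open symbols at the bottom of the left panel mark Erbb4 in tumors 2 and 3, listed at 0. All tumors lie below all normal lungs for Egfr and above them for Erbb3, and tumor 1 stands apart from tumors 2 and 3 for Areg, Ereg and Hbegf.

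As a share of the receptor sum, Erbb3 took 57.5% to 60.1% in tumors and 34.9% to 39.6% in the normal lungs. Egfr took 1.54%, 0.570% and 1.02% in tumors 1 to 3 and 13.1% to 20.0% in the normal lungs. Erbb2 took 38.3% to 41.4% in tumors and 41.7% to 47.6% in the normal lungs. The receptor make-up was thus alike in the 3 tumors, unlike that of the ligands.

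**Figure D2:**
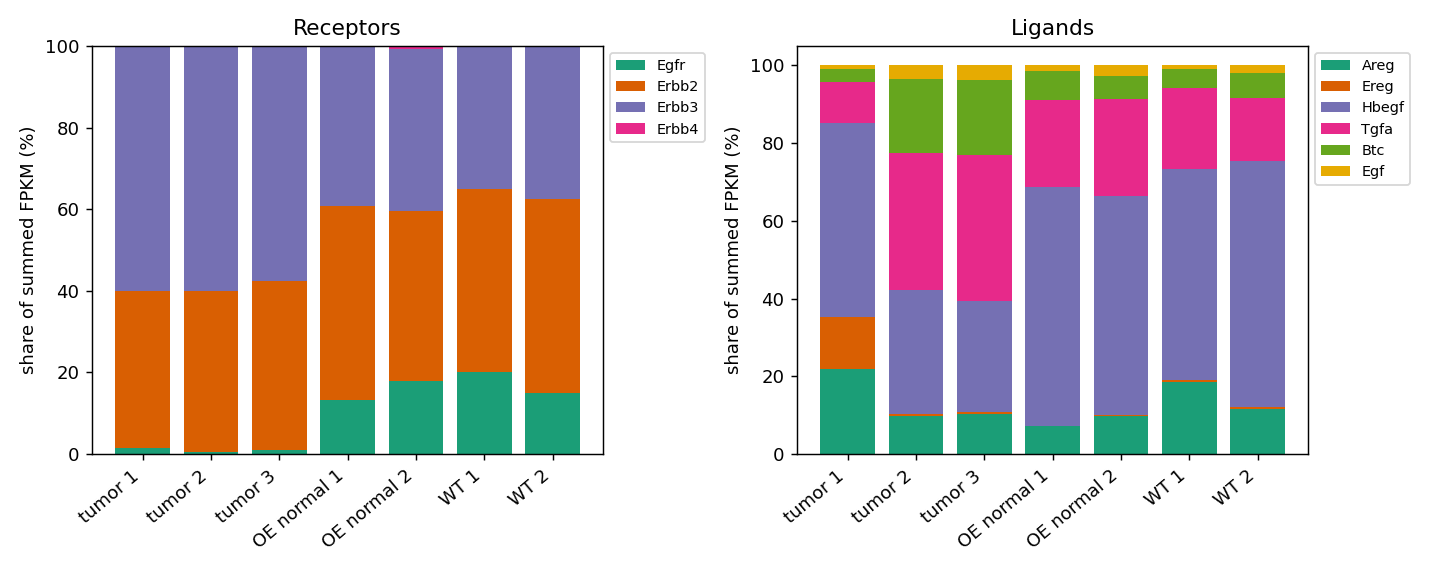
Share of the summed FPKM (%) held by each of the 4 receptors (left) and each of the 6 ligands (right), with 1 bar per library. The receptor bars of the 3 tumors look alike, with Erbb3 at 57.5% to 60.1%, while the ligand bar of tumor 1 differs from those of tumors 2 and 3 in its shares of Hbegf, Ereg, Areg, Tgfa and Btc.

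The ligands did not move as a group, and the tumors differed among themselves. Tumor 1 had the highest Areg, Ereg and Hbegf of all 7 libraries, while tumors 2 and 3 had the highest Tgfa, Btc and Egf. The summed level of the 6 ligands was 61.5 FPKM in tumor 1, 26.1 and 24.0 FPKM in tumors 2 and 3, 23.9 and 18.6 FPKM in OE normal 1 and 2, and 35.3 and 36.1 FPKM in WT 1 and 2.

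Ereg was at 8.34 FPKM in tumor 1, 0.170 and 0.142 FPKM in tumors 2 and 3, 0.0375 and 0.0321 FPKM in OE normal 1 and 2, and 0.190 and 0.132 FPKM in WT 1 and 2. Only tumor 1 passed 1 FPKM, so Ereg was not tested, and tumors 2 and 3 lay at the level of WT lung. Tumor 1 exceeded the mean of the other 2 tumors 53.6-fold. Ereg held 13.5% of the ligand sum in tumor 1 and at most 0.651% in any other library.

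Areg was at 13.4, 2.54 and 2.46 FPKM in tumors 1 to 3, at 1.71 and 1.83 FPKM in OE normal 1 and 2, and 6.56 and 4.20 FPKM in WT 1 and 2. Tumors 2 and 3 lay between the OE normal and the WT lungs. The tumor mean was 6.14 ± 6.30 FPKM, and neither comparison passed (log2 difference 1.02, SE 0.64, limma adjusted p = 0.251 against OE normal lung, and -0.16, SE 0.64, limma adjusted p = 0.860 against WT lung). The sign of the second turned to 0.13 under quantile normalization, and without tumor 1 Areg was lower than in the WT lungs (-0.84, limma adjusted p = 0.0106). With tumor 1 left out most genes tested were called, as given below, so a call in that setting carries little weight.

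Hbegf, a membrane-anchored ligand shed by metalloproteinases, was the most abundant ligand in tumor 1 and in all 4 normal lungs. It was at 30.6 FPKM in tumor 1 and at 8.27 and 6.81 FPKM in tumors 2 and 3. The OE normal lungs had 14.6 and 10.5 FPKM and the WT lungs 19.1 and 22.9 FPKM, so that tumor 1 lay above every normal lung and tumors 2 and 3 below every one. Over the 3 tumors Hbegf did not pass (log2 difference -0.02, SE 0.60, limma adjusted p = 0.980 against OE normal lung, and -0.74, SE 0.60, limma adjusted p = 0.364 against WT lung). The first of these turned to 0.14 with median-of-ratios scaling and to 0.16 with quantile normalization. Without tumor 1 Hbegf was lower in tumors in both comparisons (-0.65, limma adjusted p = 0.0247, and -1.37, limma adjusted p = 0.00173), as most genes tested were called in that setting.

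Tgfa was at 6.49, 9.18 and 9.04 FPKM in tumors 1 to 3, at 5.36 and 4.65 FPKM in OE normal 1 and 2, and 7.39 and 5.80 FPKM in WT 1 and 2. The tumors lay above both OE normal lungs and overlapped with the WT lungs. The mean of 8.24 ± 1.51 FPKM in tumors compared with 5.004 ± 0.502 FPKM in the OE normal lungs and 6.60 ± 1.12 FPKM in the WT lungs. Tgfa rose against OE normal lung (difference in log2 0.61, SE 0.19, limma adjusted p = 0.0489) and did not pass against WT lung (0.28, SE 0.19, limma adjusted p = 0.296, and 0.42, limma adjusted p = 0.0333 without tumor 1, where most genes tested were called). The first call was at the threshold and was lost in 11 of 17 alternative analyses, among them rescaling to TPM (0.44, adjusted p = 0.158) and the omission of any library other than tumor 1 (adjusted p = 0.0784 to 0.225). Tgfa replaced Hbegf as the most abundant ligand in tumors 2 and 3, with 35.2% and 37.7% of the ligand sum.

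Btc was at 2.06, 4.99 and 4.58 FPKM in tumors 1 to 3, at 1.77 and 1.10 FPKM in OE normal 1 and 2, and 1.73 and 2.36 FPKM in WT 1 and 2. Tumors 2 and 3 were high and tumor 1 lay within the range of the WT lungs. The differences did not pass (log2 difference 0.95, SE 0.33, limma adjusted p = 0.0628 against OE normal lung, and 0.63, SE 0.33, limma adjusted p = 0.176 against WT lung). Without tumor 1 both passed (1.26, limma adjusted p = 0.00194, and 0.93, limma adjusted p = 0.00612), as did most genes tested. Under quantile normalization the first passed (1.48, limma adjusted p = 0.0192). Btc held 19.1% of the ligand sum in each of tumors 2 and 3 and 3.35% in tumor 1.

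Egf, the prototype ligand, was at 0.616, 0.918 and 0.931 FPKM in tumors 1 to 3, at 0.356 and 0.506 FPKM in OE normal 1 and 2, and 0.310 and 0.693 FPKM in WT 1 and 2. No library reached 1 FPKM, so Egf was not tested, and its share of the ligand sum was at most 3.89%.

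In total, limma called 3 of the 7 members tested in tumors against OE normal lung, Erbb3 and Tgfa higher and Egfr lower. Over all genes 38.1% were called in this comparison, 13.1% higher and 24.9% lower, so the members' share was near the background. Against WT lung it called 2 of 7, Erbb3 higher and Egfr lower, with 38.2% of all genes called, 15% higher and 23.2% lower. The median log2 difference of all genes tested was -0.11 and -0.06 in these comparisons. With tumor 1 left out, 5 and 6 members were called, but so were 9604 and 9429 genes in place of 5350 and 5371.

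Between OE normal and WT lung, the comparison of genotypes without a tumor, limma called 0 members and 0% of all genes in either direction, with 1208 genes and 0 members at an unadjusted p under 0.05. Areg showed the largest difference among the members tested, at 1.77 ± 0.0881 FPKM in the OE normal lungs and 5.38 ± 1.67 FPKM in the WT lungs (log2 difference -1.18, SE 0.70, limma adjusted p = 0.801). Hbegf was 1.68-fold higher in the WT lungs (log2 difference -0.71, SE 0.65, limma adjusted p = 0.967). Both OE normal lungs lay below both WT lungs for Egfr, Erbb2, Areg, Hbegf, Tgfa and the untested Ereg, and none of the differences tested passed. Of all genes tested, 23.1% lay lower in this way. Without tumor 1 in the shared estimate of the spread, limma called 302 genes and still 0 members.

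**Figure D3:**
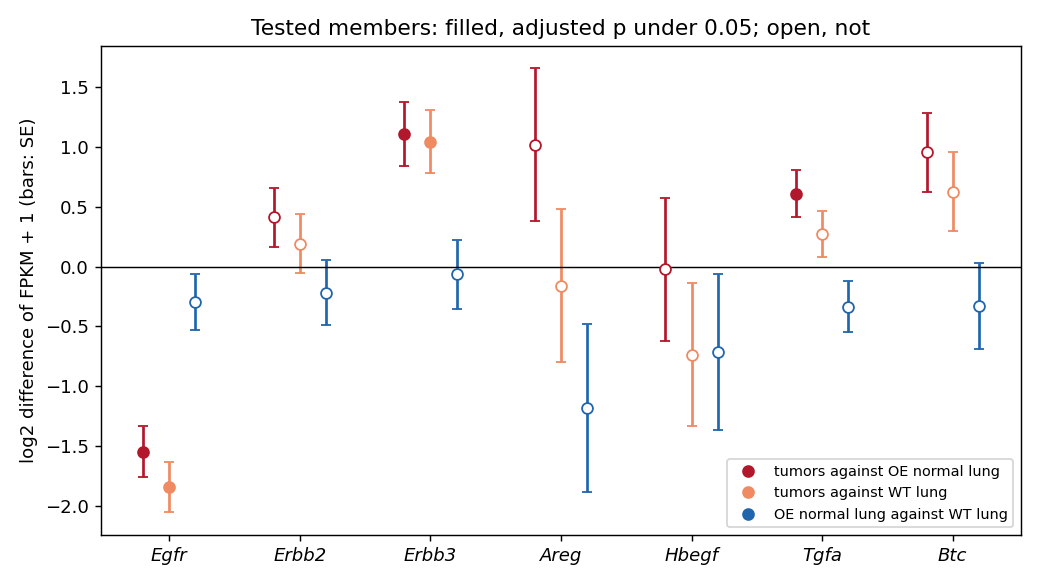
Log2 difference of FPKM + 1 (points) with its SE (bars) for the 7 members tested in 3 comparisons. Filled points passed an adjusted p of 0.05: Egfr and Erbb3 in both tumor comparisons and Tgfa against OE normal lung. The bars of Areg and Hbegf are the longest, with SE of 0.64 and 0.60 in the tumor comparisons.

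Tumor 1 also differed from tumors 2 and 3 in other respects. It was the male among the tumors by its Eif2s3y (30.7 FPKM) and Xist (0.127 FPKM), as were OE normal 1 and both WT lungs, with Ereg at 0.0375 to 0.190 FPKM. Its 7 markers of macrophages, cells that can make Areg, Ereg and Hbegf, summed to 166 FPKM against 71.6 and 92.3 FPKM in tumors 2 and 3. Among the tumors, Cd68, Emr1, Csf1r, Mrc1 and Itgam were highest in tumor 1. Marco was lowest there (3.77 FPKM, against 6.83 and 9.21 FPKM), and Trem2 was at 17.4, 17.0 and 23.4 FPKM in tumors 1 to 3. OE normal 1, at 152 FPKM of the 7 macrophage markers, had 0.0375 FPKM of Ereg and 1.71 FPKM of Areg. The sums of fibroblast and smooth muscle markers were also higher in tumor 1 (401 and 374 FPKM, against 72.7 to 103 and 53.8 to 76.2 FPKM in tumors 2 and 3). Acta2 made up most of the smooth muscle sum of tumor 1, at 313 FPKM. Tagln, Cnn1 and Des were also higher there than in tumors 2 and 3, but Myh11 was lower (1.92 FPKM, against 2.15 and 3.25 FPKM). All of them but Acta2 lay below every normal lung in tumor 1. The part of sex and of these cell types in the ligand values of tumor 1 was not tested.

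Ereg, Areg and Btc lie on chromosome 5 together with Epgn, which encodes epigen, another EGFR ligand. In RefSeq (GRCm38.p6) the protein-coding genes stand in the order Epgn, Ereg, Areg, Btc with no other protein-coding gene between them. Epgn is outside the member list and was named after its values were seen. It followed Ereg, at 3.94 FPKM in tumor 1, 0.0909 FPKM in tumor 2, listed at 0 in tumor 3, 0.0814 and 0.0105 FPKM in OE normal 1 and 2, and 0.0801 and 0.114 FPKM in WT 1 and 2. The first 3 genes of the cluster were thus highest in tumor 1, while Btc, at its end, was highest in tumors 2 and 3. The ratio of Btc to Areg was 0.153 in tumor 1 and 1.96 and 1.86 in tumors 2 and 3, with 0.264 to 1.04 in the normal lungs.

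**Figure D4:**
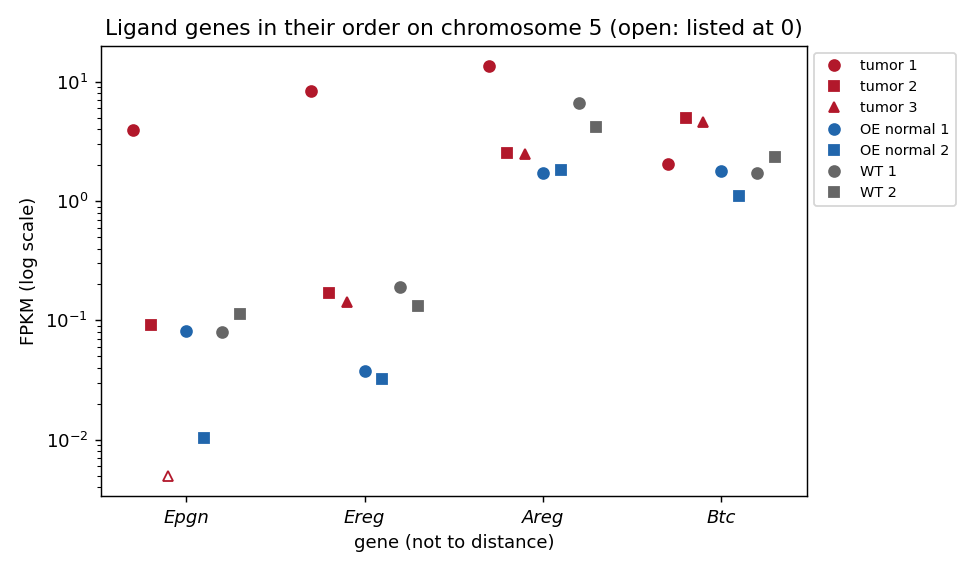
FPKM on a log axis for the 4 ligand genes in their order on chromosome 5, with 1 symbol per library, and distances not drawn. The open symbol marks Epgn in tumor 3, listed at 0. Tumor 1 is the highest library for Epgn (3.94 FPKM), Ereg (8.34 FPKM) and Areg (13.4 FPKM), and tumors 2 and 3 are the highest for Btc (4.99 and 4.58 FPKM).

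The RefSeq promoter table (GRCm38.p6) held 7 of the 10 members. The 250 bases before the start site are shown for the 3 cluster genes it held, since these neighbors differed in which tumor was highest. Sequences run 5′ to 3′ on the strand of the gene, and capitals mark matches on either strand to 5 motifs. The AP-1 motif searched was TGANTCA. The cyclic AMP response element (CRE) was TGACGTCA. The GC box was searched as GGGCGG. For ETS factors the letters were CCGGAAG. The TATA box was searched as TATAAA. No matches in these windows overlapped.
Epgn, chr5:91027267-91027516, plus strand: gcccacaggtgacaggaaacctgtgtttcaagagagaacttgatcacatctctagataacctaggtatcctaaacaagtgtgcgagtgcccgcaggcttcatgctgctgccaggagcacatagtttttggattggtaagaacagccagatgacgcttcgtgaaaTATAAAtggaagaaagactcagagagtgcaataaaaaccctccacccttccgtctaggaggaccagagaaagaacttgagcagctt
Areg, chr5:91139349-91139598, plus strand: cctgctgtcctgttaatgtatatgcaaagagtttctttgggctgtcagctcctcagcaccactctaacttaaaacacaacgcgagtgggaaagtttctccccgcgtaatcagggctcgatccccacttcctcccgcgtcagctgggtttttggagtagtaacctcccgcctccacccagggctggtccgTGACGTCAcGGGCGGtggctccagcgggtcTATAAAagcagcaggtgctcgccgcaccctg
Btc, chr5:91402995-91403244, minus strand: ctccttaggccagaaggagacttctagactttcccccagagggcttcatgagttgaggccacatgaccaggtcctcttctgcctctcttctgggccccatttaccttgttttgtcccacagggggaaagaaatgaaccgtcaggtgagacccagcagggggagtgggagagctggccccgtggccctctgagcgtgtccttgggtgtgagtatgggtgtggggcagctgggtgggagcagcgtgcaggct

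The Areg promoter held 1 CRE, which starts at -61 from the start site, with a GC box at -52 and a TATA box at -31. Of the 32851 promoters of this length in the table, 1.55% held the CRE, 32.7% the GC box and 12.4% the TATA box. The Epgn promoter held only a TATA box motif at -86, and the Btc promoter none of the 5. AP-1 and ETS motifs, held by 6.75% and 6.91% of all promoters, were in none of these 3 windows. Areg had 15 CpG dinucleotides in the window, Epgn 5 and Btc 4, against a median of 6 over all promoters. A match is a description of letters and not of binding.

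Other genes of the pathway moved in both directions. Of 65 genes in 7 lists, 64 were in the files, Hras not being analysed here, and 61 were tested. Against OE normal lung 12 rose and 12 fell, and against WT lung 11 rose and 13 fell, with a median log2 difference of 0.03 and 0.08. Over all genes tested 38.1% and 38.2% were called, so the pathway total was near the background. Of the ERK-induced genes, 7 of 14 tested rose and 0 fell against OE normal lung (median 1.05), and 5 rose and 0 fell against WT lung (median 0.93). Against WT lung 2 shedding genes rose and 1 fell, and 1 adaptor gene rose and 2 fell. In the same comparison 2 genes of the PI3K and STAT branch rose and 3 fell, 1 inhibitor rose and 3 fell, and 2 neuregulins fell.

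Among the other ligands of the family, neuregulins 1 and 2, which bind ERBB3 and ERBB4, fell. Nrg1 was at 0.494, 0.0719 and 0.0365 FPKM in tumors 1 to 3, at 1.20 and 1.45 FPKM in OE normal 1 and 2, and 1.64 and 1.75 FPKM in WT 1 and 2. Each tumor lay below all 4 normal lungs (log2 difference -0.97, SE 0.19, limma adjusted p = 0.0105 against OE normal lung, and -1.19, SE 0.19, limma adjusted p = 0.00514 against WT lung). The first of these was lost under quantile normalization (-0.27, limma adjusted p = 0.258) and without OE normal 2 (limma adjusted p = 0.0720). Nrg2 lay between 0.00651 and 0.146 FPKM in tumors and between 1.07 and 1.62 FPKM in the normal lungs (-1.24 and -1.003, SE 0.13 for both, limma adjusted p = 0.00101 and 0.00213). Nrg4 lay between 1.03 and 1.34 FPKM in tumors and between 0.907 and 1.63 FPKM in the normal lungs and did not pass, and Nrg3 was below the minimum. Of the ligands of ERBB3, Nrg1 and Nrg2 were thus lower in the tumors, where Erbb3 was higher. Nrg3 and Nrg4 were named after their values were seen.

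Ligand shedding genes include the proteases Adam10 and Adam17, their partners and an inhibitor. Of 6 tested, 1 rose and 1 fell against OE normal lung. The metalloproteinase Adam9 reached 56.5 ± 5.52 FPKM in tumors and 29.1 ± 1.89 FPKM in the OE normal lungs (log2 difference 0.93, SE 0.12, limma adjusted p = 0.00238). Timp3, an inhibitor of ADAM17 and other metalloproteinases, was at 68.6 ± 23.3 FPKM in tumors, with tumor 1 highest at 95.6 FPKM, and at 214 ± 31.8 and 342 ± 42.6 FPKM in the OE normal and WT lungs (-1.67 and -2.34, limma adjusted p = 0.00513 and 0.00156). Adam17, the main sheddase of Areg, Hbegf and Tgfa, was named after its values were seen and rose against WT lung (0.42, SE 0.11, limma adjusted p = 0.0265), at 17.4 ± 0.853 against 12.8 ± 0.806 FPKM.

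Of 8 adaptor genes 1 rose and 3 fell against OE normal lung. Shc1, which links phosphorylated receptors to GRB2, was at 49.9, 136 and 129 FPKM in tumors 1 to 3 and 26.5 to 30.8 FPKM in the 4 normal lungs (log2 difference 1.71, SE 0.43, limma adjusted p = 0.0240). Grb2, at 21.4 ± 5.66 against 42.1 ± 6.02 FPKM, and the docking protein gene Gab2, at 3.81 ± 0.698 against 7.62 ± 0.913 FPKM, fell (-0.97 and -0.85, limma adjusted p = 0.0172 and 0.00919). The Shc1 and Grb2 calls were lost without OE normal 1, OE normal 2 or tumor 3, the Shc1 call also without tumor 2, and the Gab2 call without OE normal 1.

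In the PI3K and STAT branch 2 of 10 genes rose and 3 fell against OE normal lung. Stat5b and Stat5a, transcription factors downstream of many receptors, fell (log2 difference -1.20 and -0.80, SE 0.26 and 0.19, limma adjusted p = 0.0133 and 0.0200). Stat5b was at 6.31 ± 2.39 FPKM in tumors against 15.2 ± 0.633 FPKM, and Stat5a at 3.75 ± 0.921 against 7.18 ± 0.658 FPKM. The kinase gene Akt1 rose, with 101 ± 13.7 FPKM in tumors against 65.4 ± 8.83 FPKM (0.62, SE 0.16, limma adjusted p = 0.0236). Each of these 3 calls was lost without OE normal 1 and without OE normal 2, the Stat5a and Akt1 calls also without tumor 2 or tumor 3, and the Akt1 call without WT 1 or WT 2 and after rescaling to TPM (0.40, limma adjusted p = 0.116).

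Among 11 inhibitors of the receptors and genes of their turnover, 1 rose and 2 fell. Errfi1, which encodes MIG6, a feedback inhibitor that binds the EGFR kinase domain, was at 182, 255 and 254 FPKM in tumors 1 to 3, at 35.3 and 69.4 FPKM in OE normal 1 and 2, and 95.6 and 76.2 FPKM in WT 1 and 2. Each tumor exceeded all 4 normal lungs (log2 difference 2.18, SE 0.32, limma adjusted p = 0.00324 against OE normal lung, and 1.40, SE 0.32, limma adjusted p = 0.0163 against WT lung). The second call was lost without tumor 2, tumor 3, WT 1 or WT 2 (limma adjusted p = 0.0506 to 0.113). The ubiquitin ligase gene Cblb, at 4.85 ± 0.452 against 11.1 ± 3.58 FPKM, and Lrig3, at 0.402 ± 0.382 against 2.29 ± 0.874 FPKM, fell (limma adjusted p = 0.00963 and 0.0178). The Lrig3 call was lost without OE normal 1, tumor 2 or tumor 3 and under quantile normalization (limma adjusted p = 0.132). After rescaling to TPM, 9 genes of this list were called, 1 higher and 8 lower. That scaling also moved the median difference of all genes down, and most calls over all genes were lower, as given below.

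Of the ERK-induced genes, the feedback inhibitor Spred1 was at 118 to 144 FPKM in tumors and 11.5 to 15.9 FPKM in the normal lungs, and the phosphatase gene Dusp4 at 50.7 to 79.1 FPKM against 2.65 to 4.13 FPKM. The ETS factor gene Etv4 was at 27.6, 16.8 and 13.5 FPKM in tumors 1 to 3 and 0.170 to 0.437 FPKM in the normal lungs. The log2 differences against OE normal lung were 3.25, 3.86 and 3.91 for Spred1, Dusp4 and Etv4 (limma adjusted p = 2.43e-04, 2.98e-04 and 4.07e-04). These 3 genes had the smallest adjusted p of the list, and others differed among the tumors. Dusp6, Phlda1, Egr1, Etv5 and Etv1 were named after their values were seen, and none passed against OE normal lung. Dusp6, a phosphatase of ERK, was at 119, 55.7 and 47.0 FPKM in tumors 1 to 3 and 32.0 to 65.5 FPKM in the normal lungs. Phlda1 was at 53.9, 14.6 and 11.9 FPKM in tumors 1 to 3 and 12.8 to 21.3 FPKM in the normal lungs. The immediate early gene Egr1 was at 39.5, 6.49 and 5.98 FPKM in tumors 1 to 3 and 8.14 to 26.5 FPKM in the normal lungs. Dusp6, Phlda1 and Egr1 were thus highest in tumor 1, the library with the highest Areg, Ereg and Hbegf, as was Etv5 (73.7 FPKM, against 34.3 and 27.7 FPKM in tumors 2 and 3). Etv1 ran the other way, at 2.15, 17.2 and 14.9 FPKM in tumors 1 to 3. So did Ccnd1, at 84.3, 214 and 191 FPKM, and Spred1 was lowest in tumor 1 as well. Spry4 differed little, at 12.0, 11.2 and 11.9 FPKM. Dusp4, Dusp5, Spry1, Spry2, Spred2 and Etv4 were highest in tumor 1. Ccnd1, Dusp5, Spred2 and the Spry genes were also named after their values were seen, and a link of these genes to the ligands was not tested.

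**Figure D5:**
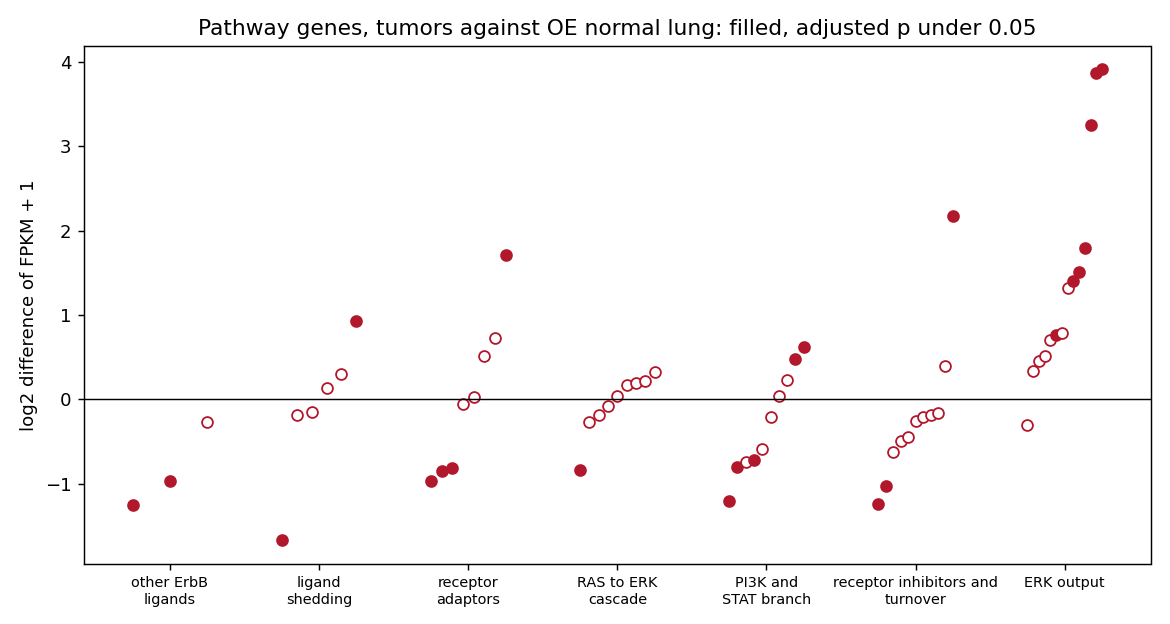
Log2 difference of FPKM + 1 between tumors and OE normal lung for the 61 pathway genes tested, by list, with 1 point per gene. Filled points passed an adjusted p of 0.05, 12 higher and 12 lower. The ERK output list reaches 3.91 (Etv4) with 7 filled points above 0 and 0 below.

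The genes whose levels followed those of the receptors most closely were sought by Pearson correlation of log2(FPKM + 1) over the 7 libraries, as a description, since all points share the same group structure. For Erbb3 they were Psat1, an enzyme of serine synthesis (r = 0.999), Enc1 (r = 0.998) and the aconitase gene Aco1 (r = 0.998), out of 10674 candidates. Psat1 was at 34.6, 16.9 and 13.7 FPKM in tumors 1 to 3 and 5.06 to 6.52 FPKM in the normal lungs. For Egfr they were Mknk2, a kinase downstream of ERK (r = 0.998), Cyp2b13 (r = 0.997) and Gm12839 (r = 0.997). Mknk2 was at 33.8, 24.9 and 24.7 FPKM in tumors 1 to 3 and 75.3 to 102 FPKM in the normal lungs. Cyp2b13 belongs to a family of near-identical genes, so its value is uncertain.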

How the data were processed

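RNA sequencing was analysed in 7 mouse lung libraries (3 tumors, 2 OE normal, 2 WT), grouped by the labels. The authors deposited 1 FPKM value per gene and library, and the submitters' processing notes name TopHat2, TopHat, Cufflinks 2.0.0 and mm9. Annotation and strand setting: not given in the sources used here. FPKM as the unit was read from the tool and the values. Of 22474 rows per file, 27 carried a date in place of a symbol and were left out.

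A gene was tested if 2 or more libraries reached 1 FPKM, which held for 14057 genes. The test was that of limma 3.58.1 (R 4.3.3) on log2(FPKM + 1), using eBayes with a trend, 2-sided, with Benjamini-Hochberg adjustment. All 3 groups shared 1 estimate of the spread. The fit was also run on simulated data with independent noise and the same spread in every group. Such data hold no library that stands apart as tumor 1 did, so the run says little about the calls reported here. Relative depth was the most frequent ratio of the tumor 1 value to the library's value, over genes above 0 and under 0.5 FPKM in both. Promoters came from RefSeq (GRCm38.p6), another build than the files, and were matched by symbol.

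The members and lists were chosen with earlier results of these data known. Named were all members, up to 3 called genes per pathway list by adjusted p, the 3 genes most like each receptor called in both tumor comparisons (mean of at least 5 FPKM in some group), Ezh2 and marker genes. Not every gene that the rule names is reported here. Each of these was tried in turn: another pseudocount (0.1), 2 other filters (none, 5 FPKM), 3 other scalings, eBayes without the trend, a fit of the 2 compared groups alone, a block for the replicate number, omission of each library and, chosen after seeing the data, omission of small RNA genes. Python 3.11.15 with matplotlib 3.10.9 made the figures.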

Additional observations from a re-analysis of the deposited data

How the results depend on the processing

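Egfr fell in both tumor comparisons under all 16 alternatives that tested it, with limma adjusted p between 4.63e-04 and 0.0255 against OE normal lung and between 2.74e-04 and 0.0154 against WT lung. A filter at 5 FPKM removed Egfr, which left 1 member called against WT lung in place of 2. Erbb3 stayed higher in all 17 alternatives and kept its call in 15 of 17 in each comparison, and the exceptions are given above. Without a filter Erbb4 was tested too (log2 difference -0.15 against OE normal lung, limma adjusted p = 0.0208, and -0.07 against WT lung, limma adjusted p = 0.146), as was Ereg (1.16 and 1.00, limma adjusted p = 0.405 and 0.482).

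With the replicate block, 3130 genes were called against OE normal lung, 2999 against WT lung and 1 between OE normal and WT lung. Deviations of libraries with the same number correlated between -0.03 and 0.03. Within a normal group the deviations mirror each other, so these correlations cannot show whether the numbers pair the libraries. Tumor 3 was the only library with its number, so the block took it out of the comparisons. The differences under the block thus equal those without tumor 3, as for Tgfa against OE normal lung (0.54 in both). Hbegf (0.35) against OE normal lung and Areg (0.19) against WT lung changed sign in this way. With 1 library left out, genes called ranged from 2877 to 9604 against OE normal lung, from 2411 to 9429 against WT lung and from 0 to 302 between the normal groups, and members called from 1 to 5, 1 to 6 and 0 to 0. Between the normal groups 1 gene was called with a pseudocount of 0.1, 2 without a filter and 3 with only the groups compared.

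The differences that changed sign were Hbegf against OE normal lung (0.14 with median-of-ratios scaling, 0.16 with quantile normalization, and between -0.65 and 0.35 with a library left out), Areg against WT lung (0.13 with quantile normalization, -0.84 to 0.19 with a library left out), Erbb2 against WT lung (-0.029 without tumor 1, up to 0.31 without another library), Stat5a against WT lung (0.060 with quantile normalization) and Erbb3 between the normal groups (0.056 after rescaling to TPM, and between -0.17 and 0.040 with a library left out). The causes were not tested. Scaling shifted the median of all genes against OE normal lung from -0.11 to 0.05 (median of ratios), -0.35 (TPM) and 0.13 (quantile). Genes called higher made up 34.5% of calls, and 44.9%, 17.3% and 56.0% under these scalings. Against WT lung the shares were 39.4%, 45.2%, 29.6% and 54.7%. Egfr and Erbb3 kept direction and call under each of these scalings. Erbb4, Ereg and Egf lay under 1 FPKM in at least 6 of 7 libraries and were tested only with other settings. Of them only Erbb4 was listed at 0 in any library. The part of sequencing depth in these low values was not tested.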
